A study of Mus musculus with 14 samples.

Results

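The genes described here are the TGF-beta and BMP signalling genes of 14 primary mouse glioblastomas: their ligands, receptors, SMAD transducers, secreted inhibitors, follistatins and latent binding proteins. They were chosen by gene symbol, which named 56 genes (96 probes) of the array annotation. A probe was kept where its signal exceeded that of the negative control beads with a detection p under 0.05 on 3 or more of the 14 arrays. This left 54 probes of 37 genes, of 11786 genes measured in all. Of the 37 genes, 25 were detected on all 14 arrays and 12 on fewer. Of the 19 genes not kept, 12 were detected by their probes on no array (among them Bmp2, Bmp6, Grem1, Chrdl1, Bambi and Smad7), 3 on 1 array and 4 on 2 arrays.

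The question of the study was how glioblastomas started from different Cre drivers differ in expression. Type 1 tumours (7) arose in Nestin-CreERT2 mice and Type 2 tumours (7) in NG2-CreERTM mice. Both groups carried Nf1f/+, Trp53f/f and Rosa-lsl-tdTom on a mixed background, and there were no control tissues. Tamoxifen was given once by mouth at 6 to 8 weeks of age (10 mg per 20 g body weight), and tumours were taken when mice became symptomatic. Nestin marks neural stem and progenitor cells, and NG2 (Cspg4) marks oligodendrocyte progenitors and also pericytes, so neither driver acts in a single cell type of the adult brain. Batch 1 held 3 Type 1 and 4 Type 2 tumours, and batch 2 held 4 and 3. The 5 chips each held 1 type, so that chip and type cannot be told apart. Each array measured the total RNA of 1 bulk tumour, in which fewer cells of a type and less RNA per cell cannot be told apart.

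Ligands of this family are secreted dimers that bring together type I and type II serine/threonine kinase receptors. TGF-betas and activins act mainly through Smad2 and Smad3, and most BMPs and some but not all GDFs through Smad1, Smad5 and Smad9. Noggin, chordin and follistatins hold ligands away from their receptors, latent TGF-beta binding proteins tether TGF-beta to the matrix, and the Id genes are classical BMP targets. In the brain BMPs favour the astrocyte fate over the oligodendrocyte fate, and TGF-beta is known in glioblastoma for its part in mesenchymal expression and immune suppression.

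Of the 37 genes, 2 differed between the types by limma at an adjusted p under 0.05, both grouped here as BMP and GDF ligands and in opposite directions. Bmp4 was higher in Type 2 and Gdf10 in Type 1. Of all genes tested, 4.64% were called (2.32% in each direction), so that 2 of 37 (5.41%) is near the background. The median Type 1 minus Type 2 difference of the 37 genes was -0.14 on the log2 scale against -0.01 over all genes, with 12 positive and 25 negative. Within batches this median lay nearer to that of all genes, at -0.006 against -0.017 in batch 1 and -0.065 against -0.004 in batch 2. Their median absolute difference was 0.36 against 0.25 over all genes, and their median spread between tumours of the same type and batch was 0.52 (SD, log2) against 0.39.

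Both called genes lie on chromosome 14. Their promoters are shown because they carry the only differences among these genes that passed the test. Each stretch spans 250 bases before to 50 after the gene start, from RefSeq on GRCm38.p6. For Bmp4 it is chr14:46390620-46390919 on the minus strand, and for Gdf10 chr14:33923337-33923636 on the plus strand. Capitals mark matches on either strand to CAGAC (a SMAD half-site), GGCGCC (a GC-rich SMAD motif) and GGGCGG (a GC box), which can share letters with each other or with another copy.
Bmp4: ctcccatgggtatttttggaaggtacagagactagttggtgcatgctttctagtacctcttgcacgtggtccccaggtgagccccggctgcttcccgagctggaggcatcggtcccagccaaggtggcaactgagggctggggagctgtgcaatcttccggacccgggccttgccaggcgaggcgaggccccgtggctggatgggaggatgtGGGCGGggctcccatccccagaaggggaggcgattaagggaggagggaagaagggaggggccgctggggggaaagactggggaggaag
Gdf10: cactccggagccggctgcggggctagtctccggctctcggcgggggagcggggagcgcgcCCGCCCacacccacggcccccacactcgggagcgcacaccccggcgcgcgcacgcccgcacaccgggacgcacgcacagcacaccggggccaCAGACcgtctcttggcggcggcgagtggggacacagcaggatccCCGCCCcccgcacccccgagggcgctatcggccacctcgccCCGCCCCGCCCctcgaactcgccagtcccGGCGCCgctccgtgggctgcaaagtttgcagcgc

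The Bmp4 stretch held 1 GC box and no match to either SMAD motif, with a GC content of 64%. The Gdf10 stretch held 4 GC boxes, 1 CAGAC and 1 GGCGCC, with a GC content of 77.3%. RefSeq promoters were matched to 28 of the 37 genes (39 stretches). CAGAC occurred in 48.7% of these and in 49.6% of all 32851 promoters, GGCGCC in 28.2% against 11.9%, and GGGCGG in 66.7% against 35.7%. The median GC content was 64% in the promoters of these genes and 52.7% in all. A match is a run of letters and not a measured binding site.

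Bmp4, a ligand that in the brain promotes astrocyte differentiation of precursor cells, had more RNA in Type 2. Its log2 signals had a lowest, median and highest value of 6.50, 8.54 and 9.29 in Type 1 and of 8.71, 9.82 and 10.83 in Type 2. The ranges overlapped through Type 2 replicate 5, at 8.71, and the other 6 Type 2 tumours lay above every Type 1 tumour. Type 1 averaged 8.32 ± 0.90 and Type 2 9.91 ± 0.76 (SD, n = 7 each). Bmp4 thus differed by -1.68 ± 0.38 (SE), a 3.21-fold difference whose adjusted p by limma was 0.0268. It had the same sign in both batches, at -2.19 in batch 1 and -1.17 in batch 2. A second, dimmer Bmp4 probe, detected on 8 arrays, differed by -0.97 ± 0.46 (SE; limma adjusted p = 0.251), and with the mean of both probes the call was lost (-1.32, limma adjusted p = 0.0576). The adjusted p was 0.0507 when Type 1 replicate 5 was left out, 0.0511 for Type 2 replicate 6 and 0.0575 for replicate 7 of that type.

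Gdf10 (also called Bmp3b), a ligand known as a marker of Bergmann glia in the cerebellum, had more RNA in Type 1. Its probe was above background in 6 of the 7 Type 1 tumours but in only 2 of the 7 Type 2 tumours. It therefore passed the filter of 3 arrays only through Type 1, the type where it was higher, and its p-values do not allow for that. The lowest, median and highest values were 4.94, 6.73 and 8.36 in Type 1 and 4.71, 5.08 and 6.28 in Type 2. Type 1 replicate 3, at 4.94, lay within the Type 2 range, and the other 6 Type 1 tumours lay above every Type 2 tumour. Gdf10 thus differed by 1.43 ± 0.31 (SE), with an adjusted p of 0.0225 by limma. No fold is given, since the Type 2 mean of 5.18 lay below 5.40, the mean over arrays of the lowest signal at which a probe was detected, and the size of the difference rests in part on signals near background. It was 1.13 in batch 1 and 1.73 in batch 2. Gdf10 was also the only one of the 37 genes that differed between batches (1.06 higher in batch 2, limma adjusted p = 0.0418), where 10.7% of all genes did. That batch call was lost in 10 of 14 fits with a single tumour left out, and with no detection filter Ltbp1 was called in place of Gdf10. With median scaling in place of quantile normalization, 10 of the 37 genes differed between batches, against 35.4% of all genes. Without Type 1 replicate 2 the adjusted p for type was 0.0615, and without background correction the difference was 0.53 (limma adjusted p = 0.0571). With Type 1 replicate 1 and Type 2 replicate 5 left out, the 2 tumours highest in choroid plexus genes, Gdf10 lost its call (1.23, limma adjusted p = 0.109) and Bmp4 kept it. Of all genes, 106 were then called (0.899%) in place of 547.

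**Figure D1:**
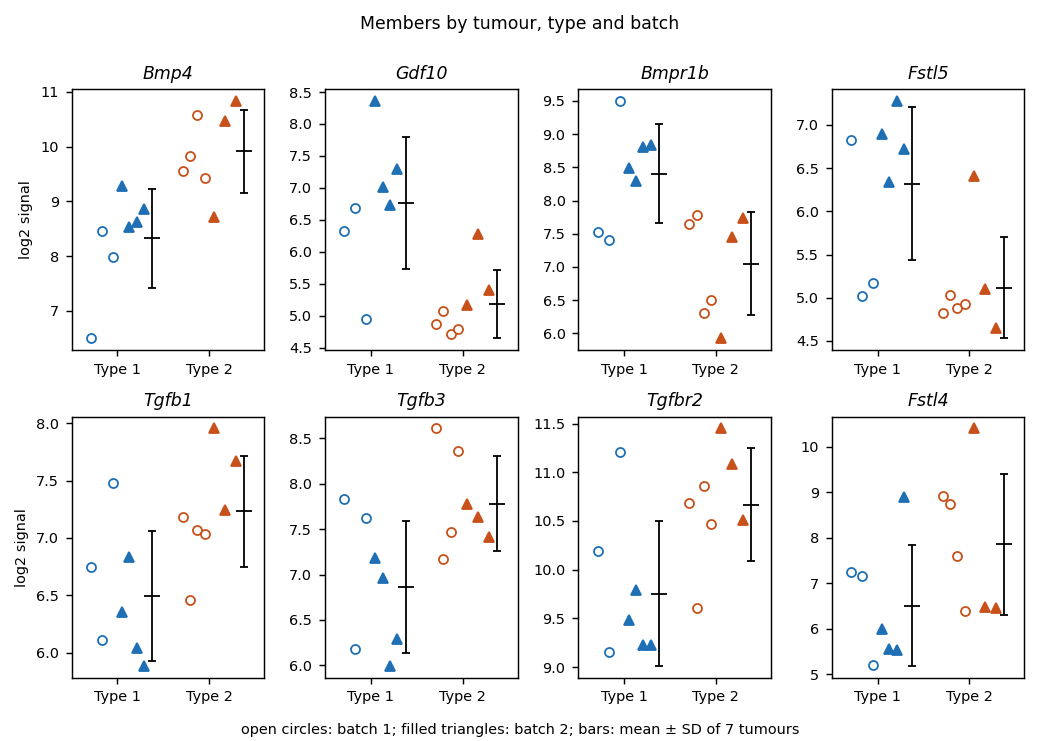
Log2 signal of 8 genes in each tumour, by type, with batch 1 as open circles, batch 2 as filled triangles and bars for the mean ± SD of 7 tumours. In Bmp4 6 of 7 Type 2 tumours lie above all Type 1 tumours, and in Gdf10 6 of 7 Type 1 tumours lie above all Type 2 tumours.

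Markers of some other cell types moved with type. The mean log2 signal of 8 measured mural genes ran from 6.67 to 7.17 in Type 1 and from 7.32 to 8.22 in Type 2, with 1 gene (Rgs5) called higher in Type 2. That of 8 fibroblast and meningeal genes ran from 6.18 to 6.98 and from 6.90 to 8.19, with Col1a1 and Lum called higher in Type 2. In 8 astrocyte genes it ran from 10.58 to 11.85 in Type 1 and from 9.35 to 10.50 in Type 2, with 3 genes higher in Type 1 and 1 in Type 2. Of 10 endothelial genes 2 were called, both higher in Type 2 (median -0.73), as were 4 of 5 Schwann cell and pigment genes (median -3.84). Of 8 oligodendrocyte lineage genes 2 were called higher in Type 2, but the list was mixed (median -0.15). Olig2, Mog, Mag and Mobp had positive differences (0.49, 0.29, 0.16 and 1.21) and the others negative ones. Its mean levels overlapped, at 9.80 to 11.46 in Type 1 and 9.82 to 11.23 in Type 2. These counts were not tested against the 4.64% called of all genes. With the mean of the mural and fibroblast genes as a covariate, 0 of the 11786 genes were called, Bmp4 differed by -1.29 ± 0.83 (SE) and Gdf10 by 0.94 ± 0.67 (SE). The mural genes included Cspg4, which also marks oligodendrocyte progenitors, so neither the mural level nor the covariate measures mural cells alone. Type and batch explained 79.8% of that covariate, which widens every standard error. The part of these cell types in the results was not tested beyond that.

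The other 5 measured BMP and GDF ligands did not pass the test. Gdf3 spanned 4.73 to 7.50 in Type 1 and 5.09 to 8.06 in Type 2, and differed by -0.94 ± 0.54 (SE). It was above background in only 4 Type 1 and 5 Type 2 tumours, and the lowest value of each type was not. Gdf1, whose mouse transcript is shared with Cers1 so that a probe may read both, was bright in all tumours (11.69 ± 0.43 and 11.37 ± 0.65, SD, n = 7 each) and differed by 0.35 (95% confidence interval -0.26 to 0.96). Bmp5, Gdf9 and Bmp7, a ligand of meninges and choroid plexus in the brain, differed by -0.14, 0.11 and -0.15. The interval of Bmp7 ran from -1.19 to 0.89, since its tumours spread from 6.72 to 10.57 within Type 2.

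All 4 TGF-beta and activin ligands had lower means in Type 1 over both batches, and none passed the test. That shared direction did not hold in batch 1, where Tgfb3 and Tgfb1 differed by -0.69 and -0.16 but Tgfb2 and Inhba by 0.35 and 0.21. The median difference of the 4 genes was 0.03 in batch 1 and -1.23 in batch 2. Tgfb3 ranged from 6.00 to 7.84 in Type 1 and from 7.18 to 8.61 in Type 2, and its difference was -0.85 ± 0.31 (SE), with an adjusted p of 0.125 by limma. Tgfb1, which in the brain is made largely by microglia and macrophages, ranged from 5.89 to 7.48 and from 6.46 to 7.95, and its difference was -0.75 ± 0.28 (SE; limma adjusted p = 0.131). In each gene 4 of 7 Type 1 tumours lay below every Type 2 tumour. Tgfb2 differed by -0.40 (95% confidence interval -1.24 to 0.43). Inhba, which encodes the subunit of activin A, differed by -0.54 (95% confidence interval -1.85 to 0.76). Its highest value of all, 10.06, and its lowest, 4.72, were both Type 1 tumours.

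None of the 10 measured receptor genes passed, and 4 had an unadjusted p under 0.05. Over all 37 genes 11 did, or 29.7% against 21.8% of all genes tested. The type I BMP receptor gene Bmpr1b came nearest, with values of 7.40 to 9.49 (median 8.50) in Type 1 and 5.93 to 7.78 (median 7.45) in Type 2. Here 5 of 7 Type 1 tumours lay above every Type 2 tumour. The difference was 1.32 ± 0.38 (SE; limma adjusted p = 0.0615), and its second probe gave 1.65 ± 0.45 (SE; limma adjusted p = 0.053 over all probes). Within batches Bmpr1b differed by 1.08 and 1.57, and without Type 2 replicate 2 it was called (1.45, limma adjusted p = 0.045). That tumour held the highest Type 2 value of Bmpr1b. The other 13 fits with a single tumour left out did not call it (limma adjusted p up to 0.123).

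Acvr1c, the gene of the receptor ALK7, was above background in 4 of the 7 Type 1 tumours and in 0 of the 7 Type 2 tumours, which holds for 1.58% of all genes (no detection in 1 type). Its Type 1 mean, 5.34, did not exceed the lowest signals at which probes were detected, so no bound on the fold is given, and its adjusted p was 0.0858 by limma. Without Type 1 replicate 7, which held its lowest Type 1 value, the limma adjusted p was 0.0487, with the same limit on the size. Leaving out that lowest value necessarily raised the Type 1 mean. Acvr1c also passed the detection filter only through Type 1, the type where it was higher, and its p-values do not allow for that. The other 13 fits with a single tumour left out did not call Acvr1c (limma adjusted p up to 0.193). The activin receptor gene Acvr2b had an interval of 0.06 to 0.99 around its difference of 0.52, which did not pass (limma adjusted p = 0.176). In the opposite direction, Tgfbr2, the type II receptor of TGF-beta, ranged from 9.16 to 11.21 in Type 1 and from 9.61 to 11.45 in Type 2 and differed by -0.90 ± 0.34 (SE; limma adjusted p = 0.142). The type I BMP receptor gene Bmpr1a and the type II gene Bmpr2 had narrow intervals, from -0.51 to 0.20 and from -0.38 to 0.27. The remaining receptor genes, Tgfbr1, Tgfbr3, Acvr1 and Acvr1b, differed by -0.30, -0.06, -0.38 and 0.28, and their intervals all included 0.

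The 5 measured SMAD genes differed by -0.35 to 0.22 between the types, and none passed at either threshold. Smad3 differed by -0.35 (95% confidence interval -0.89 to 0.19), and Smad6, an inhibitory SMAD gene that BMP signalling itself induces, by 0.22 (95% confidence interval -0.12 to 0.55). Smad1 had close means in the types, at 9.66 ± 0.31 and 9.63 ± 0.19 (SD, n = 7 each), with an interval of -0.33 to 0.37. For Smad5 the 2 kept probes disagreed in sign (-0.10 and 0.16), as did those of Bmpr1a and Ltbp3. In all, 12 of the 37 genes had more than 1 kept probe.

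**Figure D2:**
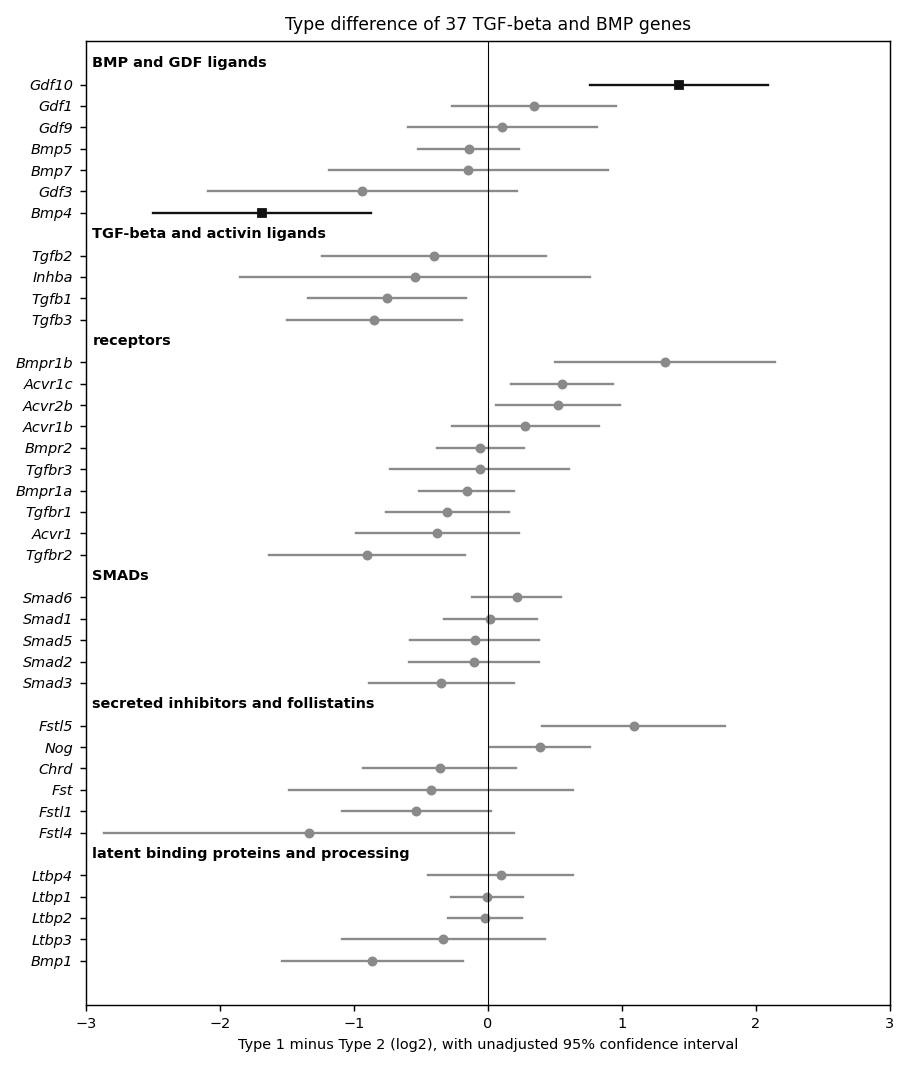
Type 1 minus Type 2 difference of each of the 37 genes on the log2 scale, grouped by role, with its unadjusted 95% confidence interval from limma. Black squares mark Gdf10 (1.43) and Bmp4 (-1.68), the 2 genes called, and grey circles the other genes, with Acvr1c drawn at its measured signals though it was not above background in Type 2.

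Among the genes grouped here as secreted inhibitors and follistatins, Fstl5 encodes a follistatin-like protein. Its probe was above background in 5 of the Type 1 tumours and 1 of the Type 2 tumours. Its values ran from 5.02 to 7.27 (median 6.72) in Type 1 and from 4.65 to 6.41 (median 4.93) in Type 2, where replicate 5 was the highest. The difference was 1.09 ± 0.32 (SE; limma adjusted p = 0.0634), and Fstl5 was called when either Type 1 replicate 3 (1.24, limma adjusted p = 0.0492) or Type 2 replicate 5 (1.27, limma adjusted p = 0.0493) was left out. Type 1 replicate 3 was low for its type, at 5.17. The other 12 fits with a single tumour left out did not call Fstl5 (limma adjusted p up to 0.138). It passed the filter of 3 arrays only through Type 1, and its p-values do not allow for that. Neuron markers, 8 genes, had a median difference of 1.14, with mean levels of 8.07 to 10.16 in Type 1 and 6.67 to 9.74 in Type 2. Their part in the value of Fstl5 was not tested.

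Nog, the gene of the BMP antagonist noggin, was near the detection limit (above it in 4 of the Type 1 tumours and 1 of the Type 2 tumours), with a difference of 0.39, an interval of 0.02 to 0.76 and a limma adjusted p of 0.211. The related follistatin-like gene Fstl4 had one of the widest spreads of these genes, from 5.19 to 8.89 in Type 1 and from 6.39 to 10.40 in Type 2. Its spread within type and batch was 1.58 (SD), above that of 99.3% of all genes, and its difference of -1.33 ± 0.72 (SE) did not pass. Fstl1, Fst (follistatin) and Chrd (chordin) differed by -0.53, -0.42 and -0.36, with Fst above background on 10 of the 14 arrays. Of the matrix and processing genes, Bmp1, which encodes a protease that cleaves procollagens and chordin and is no ligand, differed by -0.86 ± 0.32 (SE; limma adjusted p = 0.133). All 4 of its kept probes were lower in Type 1, by 0.45 to 0.86 on the log2 scale. The latent binding protein genes Ltbp1, Ltbp2, Ltbp3 and Ltbp4 differed by -0.01, -0.02, -0.33 and 0.10. Ltbp1 and Ltbp2 were near background, detected on only 3 and 5 of the 14 arrays.

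Some tumours held the extreme values of several of these genes, and their counts were not tested against the shares over all genes. Type 1 replicate 1 was the highest Type 1 tumour in 8 of the 37 genes, among them Inhba (10.06), Fst (8.16), Ltbp3 (11.31) and Tgfbr3 (8.09), and the lowest in Bmp4 (6.50). Over all genes this tumour was the highest of its type in 13.3%. It also had the highest level of 6 choroid plexus genes, 10.57 against 5.29 to 5.66 in the other Type 1 tumours. Type 1 replicate 3 was the highest in 9 genes, including Tgfb1 (7.48), Tgfbr2 (11.21), Tgfbr1 (11.69), Smad2 (9.79), Smad3 (11.09) and Bmpr1b (9.49), and had the highest microglia and macrophage level of all tumours (10.16 over 7 genes). Over all genes it was the highest Type 1 tumour in 18.3%. Without it, Tgfb1 (-0.98, limma adjusted p = 0.0376) and Tgfbr2 (-1.21, limma adjusted p = 0.0307) were called. With Fstl5, Bmp4 and Gdf10 this made 5 of 37 genes (13.5%), against 4.2% of all genes in the same fit. Leaving out the highest Type 1 value necessarily lowered the Type 1 means of Tgfb1 and Tgfbr2. Each was called in only 1 of the 14 fits with a single tumour left out, and 5 was the highest count among those fits. In Type 2, replicate 5 was the highest in 11 genes and replicate 6 in 10, against 14.8% and 13.7% of all genes.

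**Figure D3:**
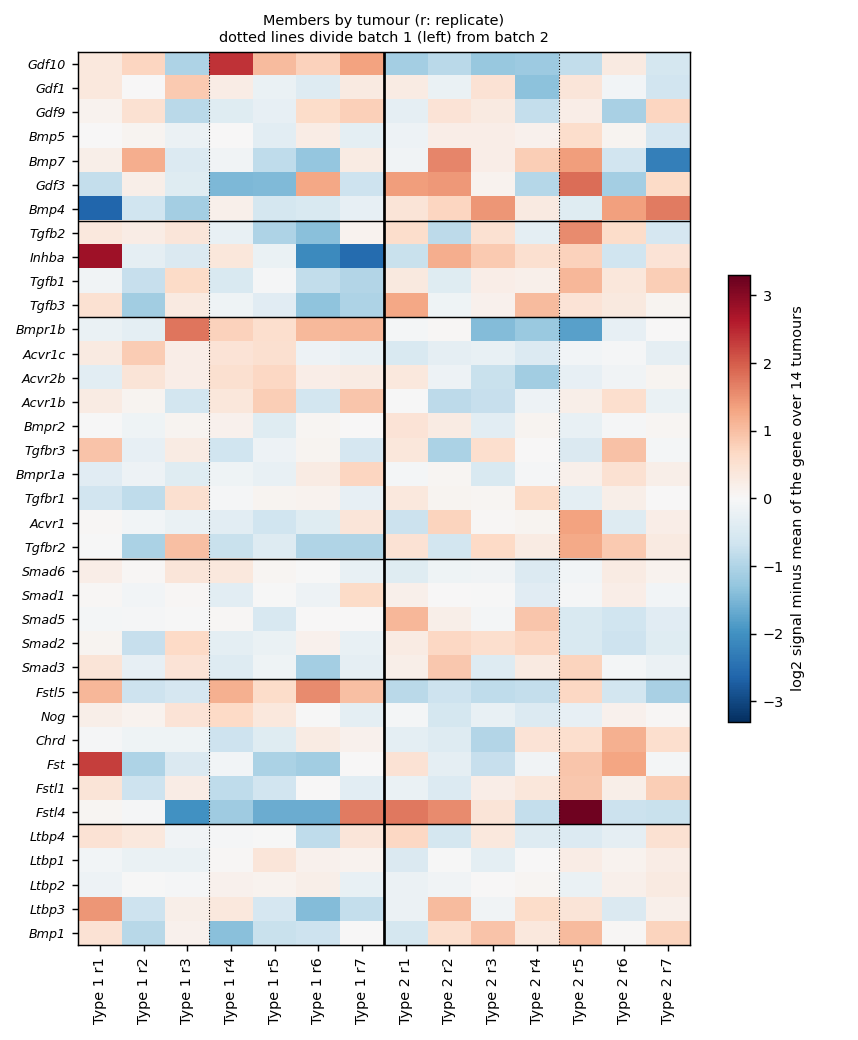
Log2 signal of each of the 37 genes (rows, by role) in each of the 14 tumours (columns), minus the mean of that gene over the tumours, with red above and blue below it. Type 1 replicate 1 is high in Inhba and Fst and low in Bmp4, and the rows of Ltbp1, Ltbp2 and Bmpr2 are nearly flat. Bmpr2 was detected on all 14 arrays, but Ltbp1 and Ltbp2 on only 3 and 5, so their flat rows are of signals near background.

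The types were also compared within each batch. Of the 37 genes, 21 had the same sign in both batches (56.8%, against 54.7% of all genes). By limma, 0 of 37 had a type difference that changed between batches at an adjusted p under 0.05 (an interaction term), as did 0 of all 11786 genes (0%), and 7 of the 37 had an unadjusted p under 0.05 (18.9%, against 16.4% of all genes). In 5 of the 7 the difference was lower in batch 2 than in batch 1. It went from -0.16 to -1.35 for Tgfb1, from -0.22 to -1.58 for Tgfbr2, from 0.35 to -1.16 for Tgfb2, from 0.02 to -1.08 for Fstl1 and from 0.21 to -0.93 for Chrd. Smad2 went from -0.56 to 0.36 and Smad5 from -0.58 to 0.39.

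In batch 2 alone Tgfbr2 was called (limma adjusted p = 0.0452). It was 1 of 37 genes there, against 1.04% of all genes, and in batch 1 alone 0 of 37 were called, against 1.41% of all genes. The median difference of the microglia and macrophage markers was 0.80 in batch 1 and -0.80 in batch 2, and that of the choroid plexus markers 1.91 and -1.05. Their part in the batch values of Tgfb1 and Tgfbr2 was not tested. With chip as a random block, 8 of the 37 genes passed the interaction test (the 7 and Smad6), but so did 22.1% of all genes, which makes 8 of 37 (21.6%) no more than the background. The consensus correlation of that fit was -0.242, a negative value that shrinks the standard error of contrasts between chips.

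**Figure D4:**
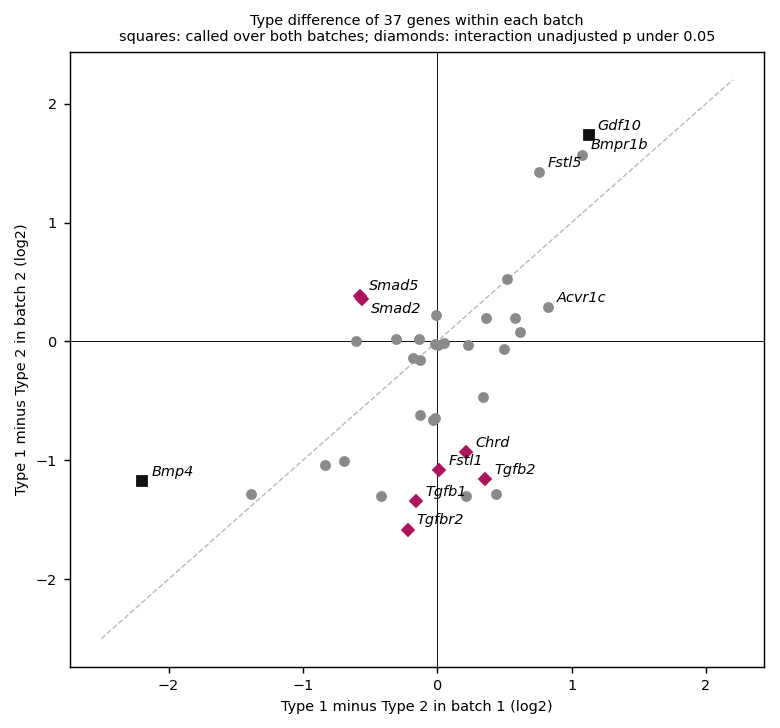
Type 1 minus Type 2 difference of each of the 37 genes in batch 1 (horizontal) and in batch 2 (vertical), log2 scale, with the dashed line at equality. Black squares are the called genes Bmp4 and Gdf10, which keep their sign, and diamonds are the 7 genes with an unadjusted interaction p under 0.05.

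Other genes of the pathway were read from 5 lists. Of 7 measured BMP target genes, only Id1 was called, with more RNA in Type 1, and 6 were not (median difference 0.46). Id1, an inhibitor of bHLH transcription factors induced by BMP, ranged from 10.23 to 10.78 in Type 1 and from 9.06 to 10.00 in Type 2. The ranges did not overlap, which holds for 1.23% of all genes and for 0 of the 37. The difference was 1.00 ± 0.17 (SE; limma adjusted p = 0.00782), at 1.38 in batch 1 and 0.61 in batch 2. Id4, named after its values were seen, differed by 1.87 ± 0.52 (SE; limma adjusted p = 0.0537), while Id2 and Id3 differed by 0.46 and -0.33. Bmp4 and Id1 thus had their higher means in different types, while Id3 had its higher mean in the same type as Bmp4. Of the astrocyte markers given above, 3 were called higher in Type 1, as was Id1, and 1 (S100b) in Type 2. Their part in the value of Id1 was not tested.

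Of 17 measured TGF-beta target genes, those called were Tgfbi and Col1a1, with more RNA in Type 2, and 15 were not called (median difference -0.39). The counts called in these lists, 1 of 7, 2 of 17 and, for the extracellular regulators, 1 of 16, stand beside 4.64% of all genes, and no difference from that share was tested. Tgfbi, a matrix protein gene named for its induction by TGF-beta, ranged from 7.28 to 10.39 in Type 1 and from 9.99 to 12.30 in Type 2, where 5 of 7 tumours lay above every Type 1 tumour. It differed by -1.87 ± 0.48 (SE; limma adjusted p = 0.0408). Col1a1, a collagen gene of fibroblasts, was above background in 0 of the 7 Type 1 tumours but in 6 of the 7 Type 2 tumours. It thus entered the tested genes only through Type 2, where its values ran from 4.79 to 9.03. Its Type 2 mean was 2.28-fold above the lowest signals at which probes were detected, an estimate that leaves out the spread between tumours. The limma adjusted p of its type difference was 0.0492. Of 16 other extracellular regulators, Bgn, which encodes the matrix proteoglycan biglycan, was higher in Type 2 (-1.53 ± 0.39, SE; limma adjusted p = 0.0404). The other 15 fell short of the threshold, and the list had a median of -0.23. None of 7 other ligand and receptor genes (median -0.11) or 16 intracellular regulators such as Ski, Smurf1 and Zeb1 (median -0.26) passed. Leaving out single tumours ended the calls of Tgfbi, Col1a1 and Bgn in 8, 12 and 10 of 14 cases, and that of Id1 in 0.

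**Figure D5:**
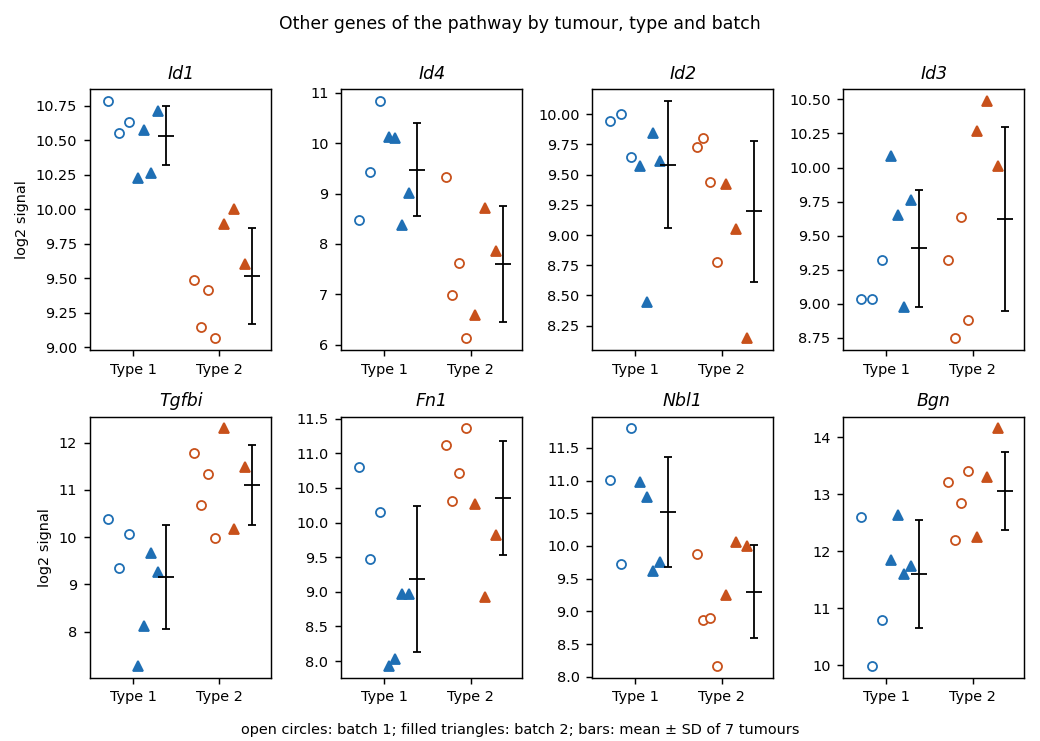
Log2 signal of 8 genes downstream of or beside the pathway in each tumour, by type, with batch 1 as open circles, batch 2 as filled triangles and bars for the mean ± SD of 7 tumours. Id1 separates the types (10.23 to 10.78 against 9.06 to 10.00), and the other genes, of which Id4, Fn1 and Nbl1 were picked after their values were seen, overlap between them.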

How the data were processed

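Total RNA of 14 frozen tumours was hybridised to Illumina bead arrays, and samples were grouped by the type in their titles. The deposited files give a signal intensity per probe, not background corrected, and a detection p-value, per the file headers; BeadStudio was used, per the submitters' processing notes. The authors also deposited a table of log2 values for 38502 probes, whose centring per probe is unknown, and which was used as an alternative. Part of the genotype is not reported here.

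Intensities were background corrected from the detection p-values, quantile normalized and log2 transformed (neqc, offset 16; limma 3.58.1, R 4.3.3). Probes with 1 gene symbol and a detection p under 0.05 on at least 3 arrays were kept, and the probe with the highest mean stood for its gene. Limma was fitted to all 11786 genes with type and batch as terms, with Benjamini-Hochberg adjustment over all of them at 0.05. On simulated data for this comparison (11786 genes), 58 of 100 genes changed by a log2 of 1 and 93 of 100 changed by 2 were recovered, with 8 false calls. Between 19299 and 20868 probes were detected per array. Precision is limited by the number of arrays, 1 per tumour.

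The genes, lists and tests were chosen with earlier results of these data known. Genes were named if called, if among the 3 lowest p-values of their role, if detected on no array of 1 type or if called in a pathway list; others named singly were chosen after their values were seen.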

Additional observations from a re-analysis of the deposited data

Results flagged for a closer look

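In 74 sets of 7 values (37 genes in 2 types), 4 held a tumour set apart from the other 6 of its type by a gap above Dixon's critical value, where chance gives about 5%. Fstl5 was 6.41 in Type 2 replicate 5, and the next highest Type 2 tumour was at 5.10. Fst was 8.16 in Type 1 replicate 1, which also had the highest choroid plexus level, and the next highest was at 5.90. Smad5 was 9.67 in Type 1 replicate 5, below the next lowest at 10.14. Smad1 was 10.28 in Type 1 replicate 7, above the next highest at 9.69.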

How the results depend on the processing

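Of all genes, 547 were called between the types, and 0 with the mural and fibroblast covariate, 166 in batch 1 alone, 123 in batch 2 alone, 106 with the 2 tumours of the highest choroid plexus level left out (an alternative chosen after seeing the data) and 195 to 639 with single tumours left out. Of the 37 genes, 2 were called, and 0 with the covariate, 1 without background correction (Bmp4), 1 with the mean of detected probes (Gdf10), 0 in batch 1 alone, 1 in batch 2 alone (Tgfbr2), 1 without the choroid plexus tumours (Bmp4) and 1 to 5 with single tumours left out. The interaction count of 0 became 8 with chip as a random block (22.1% of all genes) and stayed 0 to 0 with single tumours left out. The batch count of 1 became 0 with the covariate, without background correction, with the authors' values and without the choroid plexus tumours, 2 with the mean of probes, 10 with median scaling (where 35.4% of all genes were called) and 0 to 2 with single tumours left out. Among the genes named by the rule, signs turned with the covariate for Col1a1 (1.34, itself one of the genes averaged into that covariate), Fstl1 (0.19), Ltbp4 (-0.10) and Smad2 (0.30). They turned in batch 1 alone for Fstl1 (0.016) and Tgfb2 (0.35), and in batch 2 alone for Ltbp4 (-0.033), Smad2 (0.36) and Smad6 (-0.065). Ltbp4 also turned without Type 2 replicate 2 (-0.0020) and without the choroid plexus tumours (-0.057), and Smad2 without Type 1 replicate 2. With single tumours left out Ltbp4 spanned -0.0020 to 0.24 and Smad2 -0.19 to 0.12. Over all 37 genes, 8 turned in batch 1 alone, another 8 in batch 2 alone, and 10 with some single tumour left out. The cause was not tested. No paired analysis was possible because the titles give the types no shared replicate numbers. Signals near background limit Gdf10, Acvr1c, Nog, Fstl5, Smad6, Ltbp1 and Ltbp2, and the low values of Gdf3 and Fst. Of these, Gdf10, Acvr1c, Nog, Fstl5 and Smad6 reached 3 arrays only through Type 1, where their means were higher. Their p-values do not allow for that.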
